A study of Mus musculus with 6 samples.

Results

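Immune checkpoint genes encode the receptor and ligand pairs that restrain or permit T cell activity. Here, 10 of them were followed in mouse oesophageal squamous cell carcinomas: the receptors Pdcd1, Ctla4, Lag3, Havcr2 and Tigit, and the ligands Cd274, Pdcd1lg2, Cd80, Cd86 and Icosl. They were chosen by gene name from the 41253 gene symbols measured, and all 10 were found. The study sequenced total RNA from tumours of C57BL/6 mice labelled Ptpro-KO (genotype Ptpro-/-, 3 libraries) and WT (wild type, 3 libraries). Mice of both labels drank the DNA-damaging carcinogen 4NQO for 16 weeks, starting at 6 weeks of age, and were killed 12 weeks after it ended or earlier when they had lost much weight. The design text gives an age of 34 weeks and an age tag gives week 6. The labels do not state which part of Ptpro was deleted, in which cells, or whether the wild-type mice were littermates.

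PD-1, the product of Pdcd1, is an inhibitory receptor of activated T cells, and its ligands PD-L1 (Cd274) and PD-L2 (Pdcd1lg2) are found on tumour, stromal and antigen-presenting cells. CTLA-4 competes with the activating receptor CD28 for CD80 and CD86 on antigen-presenting cells. LAG-3 and TIGIT are inhibitory receptors of T and NK cells, and TIM-3 (Havcr2) is found on T cells and on myeloid cells. ICOS ligand (Icosl) activates the costimulatory receptor ICOS. Interferon-gamma is a known inducer of Cd274. In bulk tumour RNA, a lower value can mean fewer cells of a type or less RNA per cell, and these cannot be told apart.

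The libraries labelled Ptpro-KO held 35551442 to 39827467 reads on annotated transcripts and WT-labelled ones held 25745240 to 37595506. The targeted gene Ptpro, which encodes a receptor-type tyrosine phosphatase, ran opposite to its labels, with 30.3, 42.8 and 50.6 CPM (reads per 1000000 of the scaled library total) in Ptpro-KO-labelled libraries, against 5.05, 0.359 and 2.38 CPM in WT-labelled ones. Every direction below is therefore between libraries as labelled. The squamous markers Krt5, Krt14, Krt13, Krt4 and Trp63 summed to 11010 to 18460 CPM in Ptpro-KO-labelled libraries and 34280 to 43920 CPM in WT-labelled ones, and were abundant in all 6. Ptpro-KO replicate 3 carried 13000 CPM of the 4 stomach markers Tff1, Gkn1, Pgc and Atp4a, against at most 16.5 CPM in any other library. Skeletal muscle markers were lowest in Ptpro-KO replicate 3 (67.8 CPM) and WT replicate 2 (53.4 CPM) and reached 11070 and 11130 CPM in others. Reads from Xist and Y-linked genes showed 2 females and 1 male among the mice labelled Ptpro-KO and 1 female and 2 males among WT-labelled ones. The files of both replicate 1 libraries carry codes that start with LB and the others codes that start with B; the labels do not say what the codes stand for.

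All 10 genes were detected in all 6 libraries and passed the filter on low counts. In RPKM, the authors' deposited count scaled by transcript length and library total, averaged over 6 libraries, Icosl stood first at 8.08 ± 3.27 (SD, n = 6), followed by Cd274 at 4.90, Cd80 at 3.61, Havcr2 at 3.29 and Cd86 at 2.12. Pdcd1lg2 at 1.82, Tigit at 1.76 and Ctla4 at 1.57 came next, and Pdcd1 at 0.799 ± 0.284 and Lag3 at 0.647 ± 0.129 RPKM (SD, n = 6) were last. The ranges of neighbours in this order overlapped in every case. Compared within each library, Ctla4 stood above Pdcd1 in all 6, while the order of every other adjacent pair changed between libraries and is not resolved. For 8 of the 10 genes all reads were listed under 1 transcript, and for Ctla4 and Cd86 99.1% and 95.5% were, so the counts cannot tell isoforms apart.

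**Figure D1:**
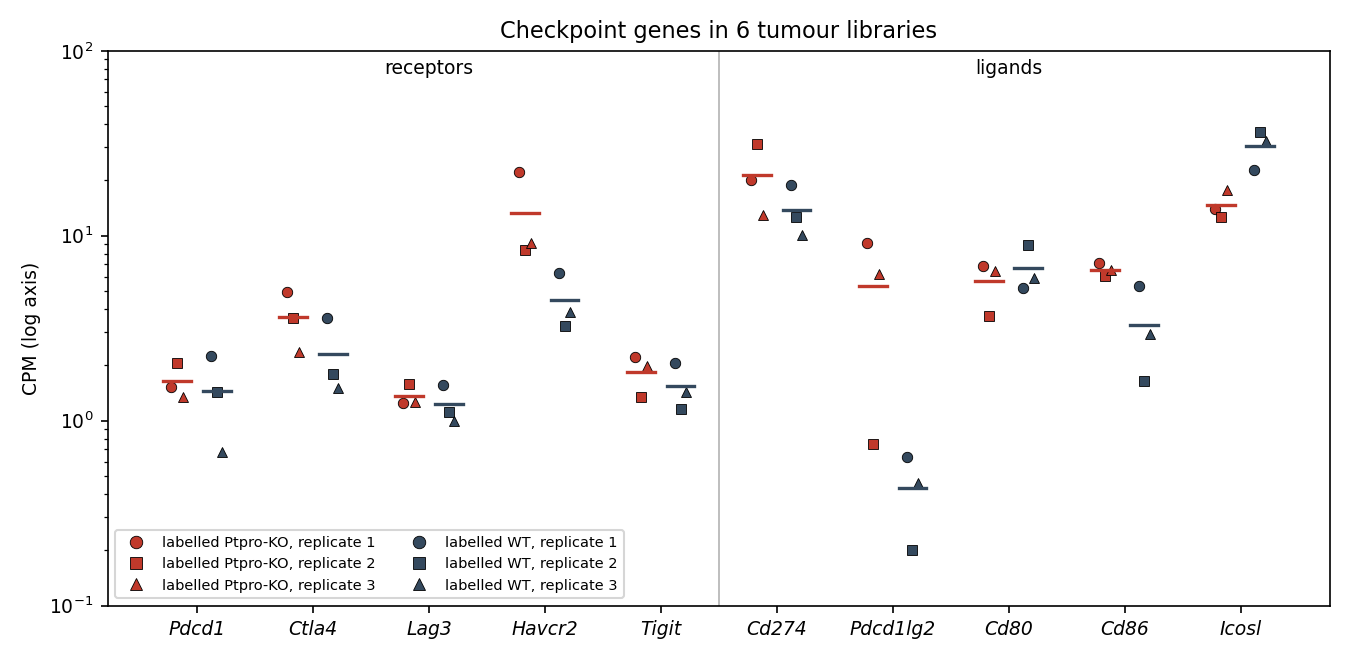
CPM of the 10 checkpoint genes on a log axis, with 1 symbol per library (red for labelled Ptpro-KO on the left of each pair, dark for labelled WT on the right) and a bar at the mean of 3. Havcr2, Pdcd1lg2 and Cd86 lie higher and Icosl lower in all 3 libraries labelled Ptpro-KO, while the other 6 genes overlap; Pdcd1lg2 in Ptpro-KO replicate 2 (0.751 CPM) lies just above the highest library labelled WT (0.638 CPM).

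The comparison asked whether tumours of the Ptpro-/- label differ from wild type in these genes. None of the 10 passed edgeR's quasi-likelihood test at an adjusted p under 0.05, where 1.81% of the 17663 genes tested were called higher and 2.29% lower. At an unadjusted p under 0.05, Havcr2 and Pdcd1lg2 were higher and Icosl lower, against 13.7% and 11.3% of all genes. DESeq2 called the same 3 genes, 2 higher and 1 lower, but it called 9.52% of all genes higher and 8.32% lower. The libraries of the labels did not overlap in 4 genes: 3 lay higher (Havcr2, Pdcd1lg2 and Cd86; 16.8% of all genes did so) and 1 lower (Icosl; 15.7% did so). The median log2 fold change of the 10 was 0.44, against 0.03 over all genes tested. Of the 10, 8 were positive and 2 negative, where 53.3% of all genes tested were positive. Without Ptpro-KO replicate 3, the library with stomach transcripts, the log2 fold changes of Havcr2, Pdcd1lg2, Cd86 and Icosl were 1.76, 3.48, 0.99 and -1.20.

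**Figure D2:**
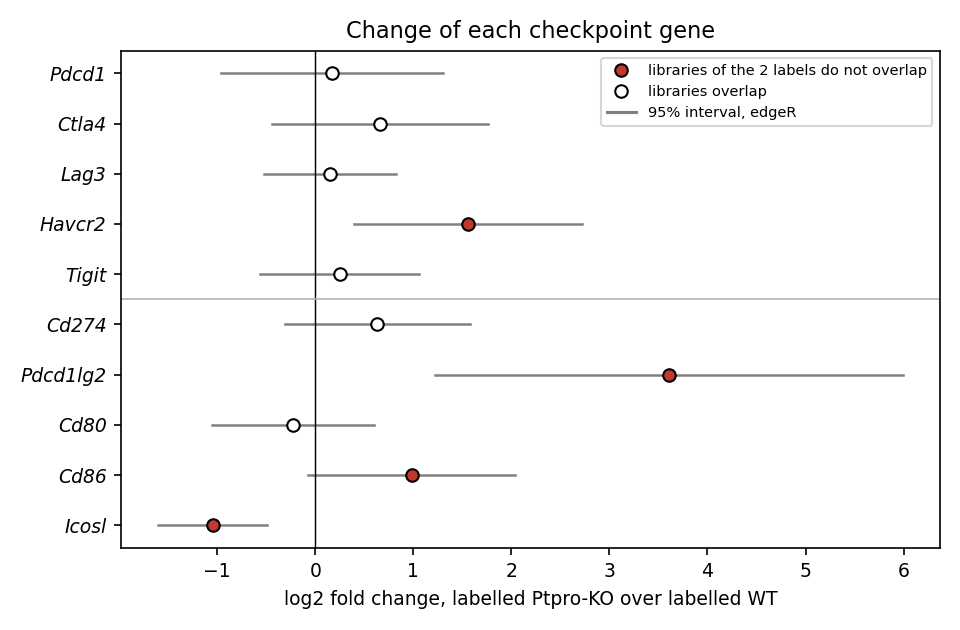
Log2 fold change (horizontal axis) of each gene between libraries labelled Ptpro-KO and labelled WT, with the 95% interval of the edgeR fit; filled points mark genes whose libraries do not overlap between the labels. Intervals of Havcr2, Pdcd1lg2 and Icosl leave out 0, from 0.40 to 2.72, from 1.22 to 5.99 and from -1.60 to -0.49, before any adjustment for the number of genes.

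Pdcd1, on chromosome 1 from 94038305 to 94052553 (GRCm38 in GENCODE M21, minus strand, ENSMUSG00000026285), had 55, 87 and 51 reads in Ptpro-KO-labelled libraries, against 77, 36 and 19 in WT-labelled ones. These are 1.52, 2.04 and 1.34 CPM against 2.23, 1.43 and 0.676 CPM, and the highest and the lowest library both carried the label WT. The log2 fold change was 0.17 (SE 0.46, 95% interval -0.96 to 1.30, edgeR adjusted p = 0.854), an interval that holds a 2-fold higher level but not a 2-fold lower one. Without Ptpro-KO replicate 2 or WT replicate 3 it was -0.03 and -0.17.

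Lag3, on chromosome 6 from 124904361 to 124911705 (minus strand, ENSMUSG00000030124), encodes a receptor that binds MHC class II. It stood at 1.25, 1.57 and 1.27 CPM in Ptpro-KO-labelled libraries, against 1.57, 1.12 and 0.997 CPM in WT-labelled ones. The groups overlapped, and the log2 fold change of 0.15 had the narrowest interval of the 5 receptors, from -0.52 to 0.82 (SE 0.27, edgeR adjusted p = 0.782). Tigit, on chromosome 16 from 43648867 to 43664146 (minus strand, ENSMUSG00000071552), encodes a receptor for the poliovirus receptor Pvr and for nectin-2. It stood at 2.21, 1.34 and 1.98 CPM in Ptpro-KO-labelled libraries and 2.06, 1.16 and 1.42 CPM in WT-labelled ones, with replicate 2 lowest under both labels. Its log2 fold change was 0.25 (SE 0.33, edgeR adjusted p = 0.689), and 0.04 with sex in the model. The authors' deposited gene table gave another picture for Tigit, with 2.87, 1.61 and 2.03 FPKM (per length and library total) in Ptpro-KO-labelled libraries, against 1.18, 0.875 and 0.927 FPKM in WT-labelled ones. On that table the labels did not overlap, and limma gave a difference of 1.03 on log2(FPKM + 0.1) and 0.65 on log2(FPKM + 1), with adjusted p of 0.0999 and 0.0989. Why the tables differ for Tigit was not tested.

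Ctla4, on chromosome 1 from 60887000 to 60915832 (plus strand, ENSMUSG00000026011), is constitutive in regulatory T cells. It stood at 4.95, 3.61 and 2.35 CPM in Ptpro-KO-labelled libraries, against 3.60, 1.79 and 1.5 CPM in WT-labelled ones. WT replicate 1 lay above Ptpro-KO replicate 3, and the log2 fold change of 0.66 (SE 0.45, interval -0.44 to 1.76) did not pass (edgeR adjusted p = 0.415). Foxp3, the defining transcription factor of regulatory T cells, stood at 1.47, 0.305 and 1.19 CPM against 1.19, 0.279 and 0.605 CPM. The libraries highest in Ctla4 and Foxp3 under each label were the replicate 1 libraries. Per 100 Foxp3 reads, Ctla4 had 338, 1185 and 198 reads in Ptpro-KO-labelled libraries, against 302, 643 and 247 in WT-labelled ones. The value of 1185 rests on 13 Foxp3 reads and that of 643 on 7, so both are imprecise.

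No T cell marker passed the test. The 12 T cell markers summed to 24.4 to 32.7 CPM in Ptpro-KO-labelled libraries and 21.8 to 33.4 CPM in WT-labelled ones. Cd5 was the largest term in every library, at 5.95, 10.3 and 5.40 CPM against 8.41, 9.33 and 14.7 CPM (log2 fold change -0.59). The sums therefore lean on a gene that ran against most of the list. The median log2 fold change was 0.37, with 9 positive and 3 negative. In either direction 0 of 12 were called, where 1.81% of all genes were called higher and 2.29% lower. At an unadjusted p under 0.05, 1 of 12 was higher, against 13.7% of all genes. Cd3e, a chain of the T cell receptor complex, had a log2 fold change of 0.45 (edgeR adjusted p = 0.641), and Cd8a, of cytotoxic T cells, had the smallest p of the list, at 2.35, 3.10 and 2.93 CPM against 1.71, 0.917 and 1.39 CPM (log2 fold change 1.05, adjusted p = 0.107). Cd8b1, its partner chain, was at -0.004. NK and cytotoxic markers summed to 4.06 to 5.94 CPM under the Ptpro-KO label and 3.28 to 6.93 CPM under the WT label. Ncr1, which defines NK cells, had 9 reads in all under each label and was not tested, and 0 of the 7 tested passed. The 4 regulatory T cell markers summed to 77.2 to 132 CPM under the Ptpro-KO label and 62.2 to 80.0 CPM under the WT label, and 0 passed. Ikzf2 (40.6 to 111 CPM over the 6 libraries) and Il2ra (19.2 to 26.4 CPM), which other cells also express, made up most of that sum, which exceeded that of the T cell markers, so it does not measure regulatory T cells. Foxp3 and Ccr8 reached only 1.47 and 0.526 CPM. Ptprc, which marks all leukocytes, overlapped, at 118, 43.5 and 86.1 CPM against 60.6, 20.8 and 25.9 CPM (log2 fold change 1.21, edgeR adjusted p = 0.229).

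Set against reads of the CD3 genes Cd3d, Cd3e, Cd3g and Cd247 of the same library, a ratio that needs no scaling between libraries, the receptors took different values. Per 100 CD3 reads, Pdcd1 had 18.1, 49.7 and 20.2 reads in Ptpro-KO-labelled libraries, against 27.7, 28.1 and 15.6 in WT-labelled ones. Lag3 had 14.8, 38.3 and 19.1 against 19.4, 21.9 and 23.0 reads. Tigit was the steadiest, at 29.6 ± 3.13 against 27.0 ± 5.22 (SD, n = 3 each). Ptpro-KO replicate 2 was the highest of all 6 libraries in the ratios of Pdcd1, Lag3 and Ctla4 (88.0 Ctla4 reads per 100 CD3 reads), and its Cd3g was the lowest of the 6, at 0.845 CPM. Cd28, the activating receptor that competes with Ctla4, had 20.7, 21.7 and 18.3 reads per 100 CD3 reads against 14.8, 9.38 and 11.5, with no overlap. The values of WT replicates 2 and 3 rest on only 12 and 14 Cd28 reads. The CPM of Cd28 overlapped between the labels and its log2 fold change of 0.81 did not pass (adjusted p = 0.347 by edgeR).

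Havcr2, on chromosome 11 from 46454935 to 46481255 (plus strand, ENSMUSG00000020399), had 796, 358 and 347 reads in Ptpro-KO-labelled libraries, against 216, 82 and 109 in WT-labelled ones. In CPM this was 22.0, 8.40 and 9.15 against 6.26, 3.27 and 3.88, so every library labelled Ptpro-KO lay above every library labelled WT, and replicate 1 was highest under both labels. The mean was 13.2 ± 7.66 CPM under the Ptpro-KO label and 4.47 ± 1.58 CPM under the WT label (SD, n = 3 each). The log2 fold change was 1.56 (SE 0.48, 2.94-fold), with an edgeR adjusted p of 0.119 and a DESeq2 adjusted p of 0.0156. Leaving out Ptpro-KO replicate 1 lowered it to 0.94.

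Havcr2 did not follow the CD3 genes: there were 262, 205 and 138 Havcr2 reads per 100 CD3 reads in Ptpro-KO-labelled libraries, against 77.7, 64.1 and 89.3 in WT-labelled ones, with no overlap. It did overlap per 100 reads of Csf1r, the receptor gene that defines macrophages, at 11.0, 8.53 and 7.63 against 8.29, 19.0 and 13.4. Over the 12 macrophage markers in turn, its ratio overlapped for 9 and was lower under the Ptpro-KO label for 3 (Mrc1, Itgam and Mertk). Csf1r itself stood at 201, 98.5 and 120 CPM against 75.6, 17.2 and 29.0 CPM. The 12 macrophage markers summed to 994 to 1715 CPM in Ptpro-KO-labelled libraries and 143 to 657 CPM in WT-labelled ones, WT replicate 2 being lowest, and none was at 0. Their log2 fold changes were positive in 12 of 12 with a median of 1.92, where 53.3% of all genes tested were positive. Of the 12, 1 rose, the phagocytic receptor gene Mertk (2.58, edgeR adjusted p = 0.0333), where 1.81% of all genes were called higher. The part of these markers in the Havcr2 difference was not tested.

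**Figure D3:**
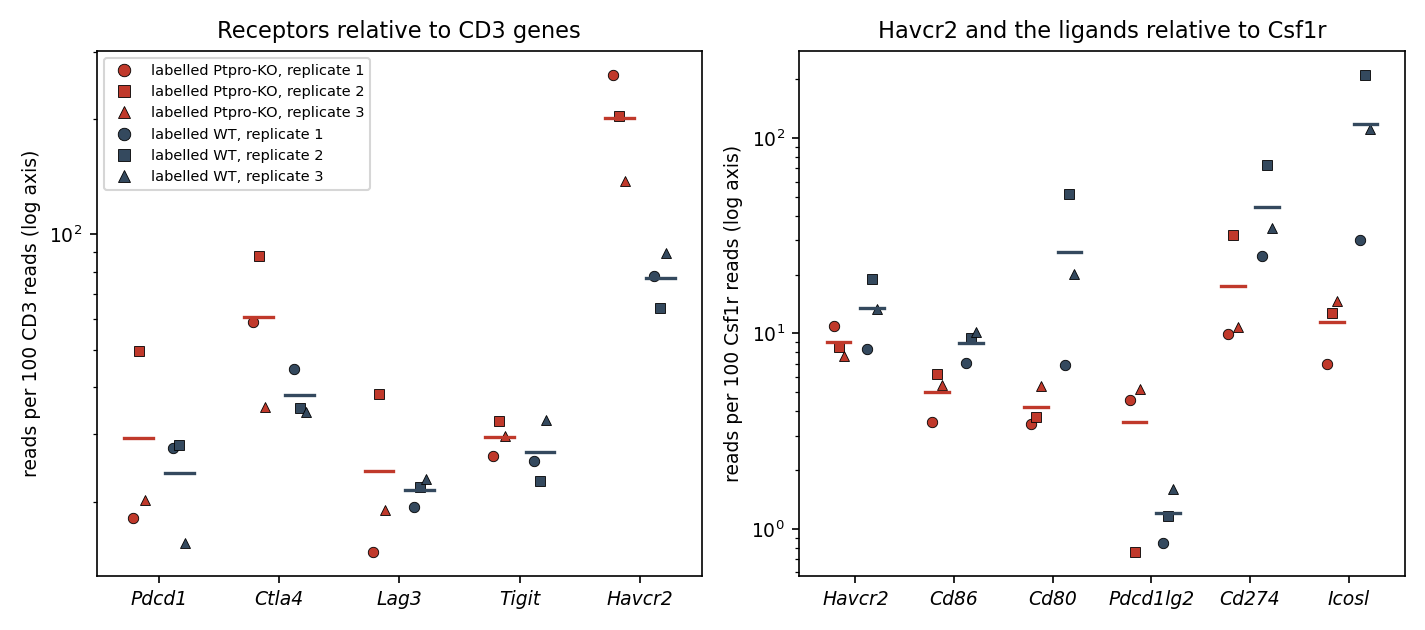
Reads of the receptors per 100 reads of 4 CD3 genes (left) and of Havcr2 and the ligands per 100 Csf1r reads (right), each within 1 library and on log axes, with bars at the mean of 3 (red for labelled Ptpro-KO, dark for labelled WT). Havcr2 lies higher in all 3 libraries labelled Ptpro-KO per CD3 read (138 to 262 against 64.1 to 89.3) but overlaps per Csf1r read, where Cd86, Cd80 and Icosl lie lower.

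The ligands of PD-1 are neighbours on the plus strand of chromosome 19, Cd274 from 29367455 to 29388095 (ENSMUSG00000016496) and Pdcd1lg2 from 29410919 to 29471161 (ENSMUSG00000016498), 22823 bases apart. They were read side by side because they share a locus and a receptor yet took different values across the same libraries, and their promoters, with those of Havcr2 and Icosl, are shown for that contrast. The sequences come from RefSeq (GRCm38.p6, gene strand, 250 bases before and 50 from the annotated start), which had an entry for 8 of the 10 genes. Both strands were searched for 5 patterns, and matches are in capitals. They were the gamma-activated site TTCNNNGAA, the AP-1 site TGANTCA, which binds Fos and Jun proteins, the TATA box, whose letters are TATAAA, a 10-base NF-kB pattern, and a paired interferon regulatory factor motif, a GAAA repeated after a gap of 2 bases.
Pdcd1lg2, chr19:29410669-29410968, plus strand: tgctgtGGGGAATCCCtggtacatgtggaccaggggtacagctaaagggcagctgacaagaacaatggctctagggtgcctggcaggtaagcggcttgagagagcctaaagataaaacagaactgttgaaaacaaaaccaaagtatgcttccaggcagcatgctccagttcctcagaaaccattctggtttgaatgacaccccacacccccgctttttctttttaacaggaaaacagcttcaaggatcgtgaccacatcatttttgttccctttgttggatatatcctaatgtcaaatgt
Cd274, chr19:29367188-29367487, plus strand: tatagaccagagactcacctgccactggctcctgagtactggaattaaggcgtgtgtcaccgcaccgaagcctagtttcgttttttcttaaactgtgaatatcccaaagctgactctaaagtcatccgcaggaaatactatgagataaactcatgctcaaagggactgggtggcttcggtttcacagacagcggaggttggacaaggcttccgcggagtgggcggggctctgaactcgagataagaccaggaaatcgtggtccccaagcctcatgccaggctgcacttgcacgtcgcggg
Havcr2, chr11:46454681-46454980, plus strand: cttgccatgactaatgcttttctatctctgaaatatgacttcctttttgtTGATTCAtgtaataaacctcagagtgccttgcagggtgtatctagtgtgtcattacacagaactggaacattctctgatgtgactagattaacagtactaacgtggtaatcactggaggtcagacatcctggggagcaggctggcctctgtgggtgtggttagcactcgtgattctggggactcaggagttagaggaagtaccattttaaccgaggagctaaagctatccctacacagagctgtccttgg
Icosl, chr10:78069118-78069417, plus strand: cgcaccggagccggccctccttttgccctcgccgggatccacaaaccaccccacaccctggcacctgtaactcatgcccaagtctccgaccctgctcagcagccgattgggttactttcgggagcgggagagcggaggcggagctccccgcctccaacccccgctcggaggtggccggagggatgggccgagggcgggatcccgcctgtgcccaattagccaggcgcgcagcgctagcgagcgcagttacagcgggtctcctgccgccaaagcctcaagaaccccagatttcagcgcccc
The Pdcd1lg2 window held 1 match, to the NF-kB letters (GGGGAATCCC, 244 bases before the start, whose first 3 bases, the seventh base and the last 2 are fixed by the pattern), which 17.4% of 32851 promoters also hold. The Havcr2 window held 1 match, to the AP-1 letters (200 bases before the start; 7.81% of promoters). The Cd274 and Icosl windows held none of the 5 patterns, of which the interferon regulatory factor pair is in 3.44% of promoters, the gamma-activated site in 8.30% and the TATA box in 13.6%. They differed in CpG dinucleotides, with 26 in Icosl, 15 in Cd274 and 3 in each of the other windows, against a median of 7 over all promoters. A match is a string of letters and not evidence of binding.

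Pdcd1lg2 had the largest fold change of the 10 genes. It had 331, 32 and 236 reads in Ptpro-KO-labelled libraries, against 22, 5 and 13 in WT-labelled ones. In CPM it stood at 9.16, 0.751 and 6.22 against 0.638, 0.199 and 0.463: Ptpro-KO replicates 1 and 3 lay above the rest, and replicate 2 lay next to WT replicate 1. Counting error alone allows 1.62 to 11.7 reads for the 5 in WT replicate 2 (exact Poisson, 95%), and 0.514 to 1.06 CPM for Ptpro-KO replicate 2, against 0.400 to 0.966 CPM for WT replicate 1. The mean was 5.38 ± 4.27 CPM under the Ptpro-KO label and 0.433 ± 0.221 CPM under the WT label (SD, n = 3 each). The log2 fold change was 3.60 (SE 0.97, 12.2-fold), and the adjusted p was 0.0959 by edgeR and 0.0012 by DESeq2. Leaving out single libraries gave 2.95 to 4.11, and adding sex to the model gave 2.43. On the authors' FPKM the difference was 1.43 with a pseudocount of 1 and 2.80 with 0.1, where the larger pseudocount exceeds every WT-labelled value (0.112 to 0.264 FPKM). Ptpro-KO replicates 1 and 3 were also high in B cell markers: the 4 markers summed to 21.6, 5.65 and 31.6 CPM against 6.47, 5.06 and 4.88 CPM. Among them Cd79b stood at 4.15, 0.211 and 5.61 CPM against 0.435, 0.159 and 0.142 CPM. The integrin Itgax, known from dendritic cells and macrophages, showed the same libraries high, at 62.1, 7.98 and 39.4 CPM against 9.95, 6.26 and 10.04 CPM. Itgax was chosen after its values were seen, from 8 dendritic cell markers with 4 positive and 4 negative log2 fold changes (median 0.10). Flt3, of the same list, stood at 2.27, 1.29 and 1.95 CPM against 2.96, 1.95 and 2.53 CPM. Of these 4 B cell markers 0 passed, and their median log2 fold change was 2.61. The part of B cells, dendritic cells and macrophages in the Pdcd1lg2 difference was not tested.

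Cd274 stood at 19.9, 31.3 and 13.0 CPM in Ptpro-KO-labelled libraries, against 18.8, 12.6 and 10.04 CPM in WT-labelled ones. The groups overlapped, Ptpro-KO replicate 2 being highest where Pdcd1lg2 of that label was lowest. The log2 fold change of 0.63 (SE 0.39, interval -0.31 to 1.57) did not pass (edgeR adjusted p = 0.368), and it was 0.24 without Ptpro-KO replicate 2. There were 46.0, 2.40 and 47.9 Pdcd1lg2 reads per 100 Cd274 reads in Ptpro-KO-labelled libraries, against 3.40, 1.58 and 4.61 in WT-labelled ones, so the ratio was low in Ptpro-KO replicate 2 and high in the other libraries of its label. GENCODE lists a transcript antisense to a Cd274 exon, and reads of both cannot be told apart because strand is not given.

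Ptpro-KO replicate 2 was also highest of the 6 libraries in several interferon-gamma responsive genes. Gbp2, a guanylate-binding protein gene, stood at 71.2, 237 and 87.2 CPM in Ptpro-KO-labelled libraries, against 40.2, 18.8 and 29.3 CPM in WT-labelled ones. The transcription factor gene Irf1, a known regulator of Cd274, stood at 69.6, 119 and 54.1 CPM against 33.5, 26.9 and 25.5 CPM. Cxcl9, Cxcl10, Ido1 and Ifngr1 were also highest in Ptpro-KO replicate 2, while Ciita, Ifng, Ifngr2, Jak1 and Jak2 were not. Ciita was lowest of its label in that library, with 15.4, 7.69 and 18.3 CPM in Ptpro-KO-labelled libraries. Of the 11 genes listed for this pathway, 10 were tested and 3 rose, while 0 fell: the receptor chain Ifngr1 (log2 fold change 1.11), the kinase Jak2 (0.73) and Ido1 (4.62, on 209 against 6 reads), with edgeR adjusted p of 0.0492, 0.0434 and 0.0466. Over all genes tested, 1.81% were called higher and 2.29% lower. With Ptpro-KO replicate 2, WT replicate 2 or WT replicate 3 left out, 0 genes of any kind were called. The median log2 fold change of the list was 1.08. Ifng itself had 30 reads in all under the Ptpro-KO label and 9 under the WT label, too few to test. The part of this pathway in the Cd274 values was not tested.

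Cd86 and Cd80, which bind both CD28 and CTLA-4, took different values. Cd86, on chromosome 16 from 36603869 to 36666081 (minus strand, ENSMUSG00000022901), stood at 7.09, 6.08 and 6.51 CPM in Ptpro-KO-labelled libraries, against 5.34, 1.63 and 2.95 CPM in WT-labelled ones. The 3 libraries labelled Ptpro-KO were close together and above the others, of which WT replicate 2 was lowest. The log2 fold change was 0.98 (SE 0.43, 1.98-fold, interval -0.08 to 2.04, edgeR adjusted p = 0.23), and 0.65 without WT replicate 2. Cd80, on chromosome 16 from 38455561 to 38496335 (plus strand, ENSMUSG00000075122), stood at 6.86, 3.66 and 6.48 CPM against 5.19, 8.89 and 5.87 CPM, the highest and lowest libraries being the replicate 2 libraries. Its log2 fold change was -0.23 (SE 0.34, interval -1.06 to 0.60, edgeR adjusted p = 0.719), and 0.03 without WT replicate 2.

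Relative to most macrophage markers, both had lower ratios under the Ptpro-KO label. Per 100 Csf1r reads, Cd86 had 3.53, 6.17 and 5.43 reads, against 7.06, 9.49 and 10.2 in WT-labelled libraries. Cd80 had 3.42, 3.72 and 5.41 reads, against 6.87, 51.6 and 20.2. Neither ratio overlapped between the labels, while the CPM of Cd86 ran the other way. The choice of marker mattered: over the 12 macrophage markers in turn, the ratio of Cd86 was lower without overlap for 9 and overlapped for 3 (Adgre1, Cd68 and Cd14), and that of Cd80 was lower for 10 and overlapped for 2 (Adgre1 and Cd14). Per 100 Cd68 reads, Cd86 had a mean of 24.9 ± 4.82 reads under the Ptpro-KO label and 20.1 ± 12.3 under the WT label (SD, n = 3 each). Over the same 12 markers, the ratio of Cd274 was lower for 8 and overlapped for 4, and that of Pdcd1lg2 overlapped for 12. In CPM, 11 of the 12 markers themselves lay higher without overlap, and a ratio falls where its marker rises more. The part of the markers in these ratios was not tested. There were 96.9, 60.2 and 99.6 Cd80 reads per 100 Cd86 reads in Ptpro-KO-labelled libraries and 97.3, 544 and 199 in WT-labelled ones, where the value of 544 rests on 41 Cd86 reads. The 8 dendritic cell markers had a median log2 fold change of 0.10 with 4 positive and 4 negative, and 0 passed.

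Icosl, on chromosome 10 from 78069302 to 78083913 (plus strand, ENSMUSG00000000732), was the gene with the smallest p of the 10 and lay in the opposite direction. It had 506, 537 and 668 reads in Ptpro-KO-labelled libraries, against 781, 914 and 909 in WT-labelled ones. In CPM it stood at 14.0, 12.6 and 17.6 against 22.6, 36.4 and 32.4, with no overlap between the labels. The mean was 14.7 ± 2.58 CPM under the Ptpro-KO label and 30.5 ± 7.08 CPM under the WT label (SD, n = 3 each). The log2 fold change was -1.05 (SE 0.23, 2.07-fold lower). The adjusted p was 0.0622 by edgeR and 0.000876 by DESeq2, and single libraries left out gave -1.23 to -0.91. Its receptor gene Icos overlapped, at 3.24, 1.5 and 1.77 CPM against 4.00, 2.23 and 1.64 CPM (log2 fold change -0.28, edgeR adjusted p = 0.754).

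Squamous keratins were also lower under the Ptpro-KO label. Of 5 squamous markers, 2 fell and 0 rose: Krt5, at 3904, 2820.3 and 2996 CPM against 6569, 8295 and 7658 CPM (log2 fold change -1.21), and Krt14 (-1.41), with edgeR adjusted p of 0.0368 and 0.035. Among all genes tested, 2.29% were called lower and 1.81% higher. The 5 squamous markers had a median log2 fold change of -1.21 and all 5 were negative. Per 100000 reads of Krt5 and Krt14 there were 145, 177 and 232 Icosl reads in Ptpro-KO-labelled libraries, against 133, 154 and 156 in WT-labelled ones. On that ratio the labels overlapped, with 185 ± 44.1 under the Ptpro-KO label and 148 ± 13.0 under the WT label (SD, n = 3 each). Per 100 Csf1r reads Icosl lay lower without overlap, at 6.98, 12.8 and 14.7 against 30.0, 212 and 111, and so it did for each of the 12 macrophage markers. For the 11 markers that themselves lay higher without overlap, Csf1r among them, this follows from the CPM values and adds nothing to them. The part of squamous epithelium in the Icosl difference was not tested.

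Of the wider co-signalling pathway, 33 other genes were listed, 32 matched a symbol and 29 were tested; Cd160, Cd40lg and Cd70 had too few reads. None passed edgeR's test, in either direction, and 12 were higher and 0 lower at an unadjusted p under 0.05, where 13.7% and 11.3% of all genes were. DESeq2 called 7 higher and 0 lower, against 9.52% and 8.32% of all genes. The libraries did not overlap in 12, all higher in Ptpro-KO-labelled libraries, as in 16.8% of all genes. Among 18 ligands and counter-receptors tested, the median log2 fold change was 0.87 with 17 positive, and among 11 receptors it was 0.33 with 7 positive. Of all genes tested, 53.3% were positive.

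The ligand Tnfsf18 (GITR ligand), which costimulates T cells, had the smallest p, at 1.27, 1.78 and 1.37 CPM in Ptpro-KO-labelled libraries, against 0.348, 0.0797 and 0.0712 CPM in WT-labelled ones. The libraries were apart, on 174 against 16 reads, with a log2 fold change of 3.06 (SE 0.61, edgeR adjusted p = 0.0541). Its receptor Tnfrsf18 overlapped between the labels, with a log2 fold change of -0.02. The ubiquitous anti-phagocytic signal Cd47 stood at 74.6, 93.6 and 66.6 CPM against 53.8, 54.6 and 41.0 CPM (log2 fold change 0.65, adjusted p = 0.0977). Tnfsf4 (OX40 ligand) completed the 3 ligands with the smallest p (1.77, adjusted p = 0.115).

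Among the other receptors, Cd200r1, an inhibitory receptor of myeloid cells, came first, at 6.42, 4.90 and 3.53 CPM in Ptpro-KO-labelled libraries against 1.22, 0.199 and 0.534 CPM in WT-labelled ones (log2 fold change 2.90, SE 0.65, edgeR adjusted p = 0.0673). The lymphocyte inhibitory receptor Btla stood at 5.34, 1.03 and 7.38 CPM against 0.841, 0.478 and 0.89 CPM (2.63, adjusted p = 0.103), with Ptpro-KO replicate 2 close to WT-labelled libraries, as for Pdcd1lg2 and the B cell markers. Tnfrsf9 (4-1BB), a costimulatory receptor, had a log2 fold change of 1.58 (adjusted p = 0.104).

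**Figure D4:**
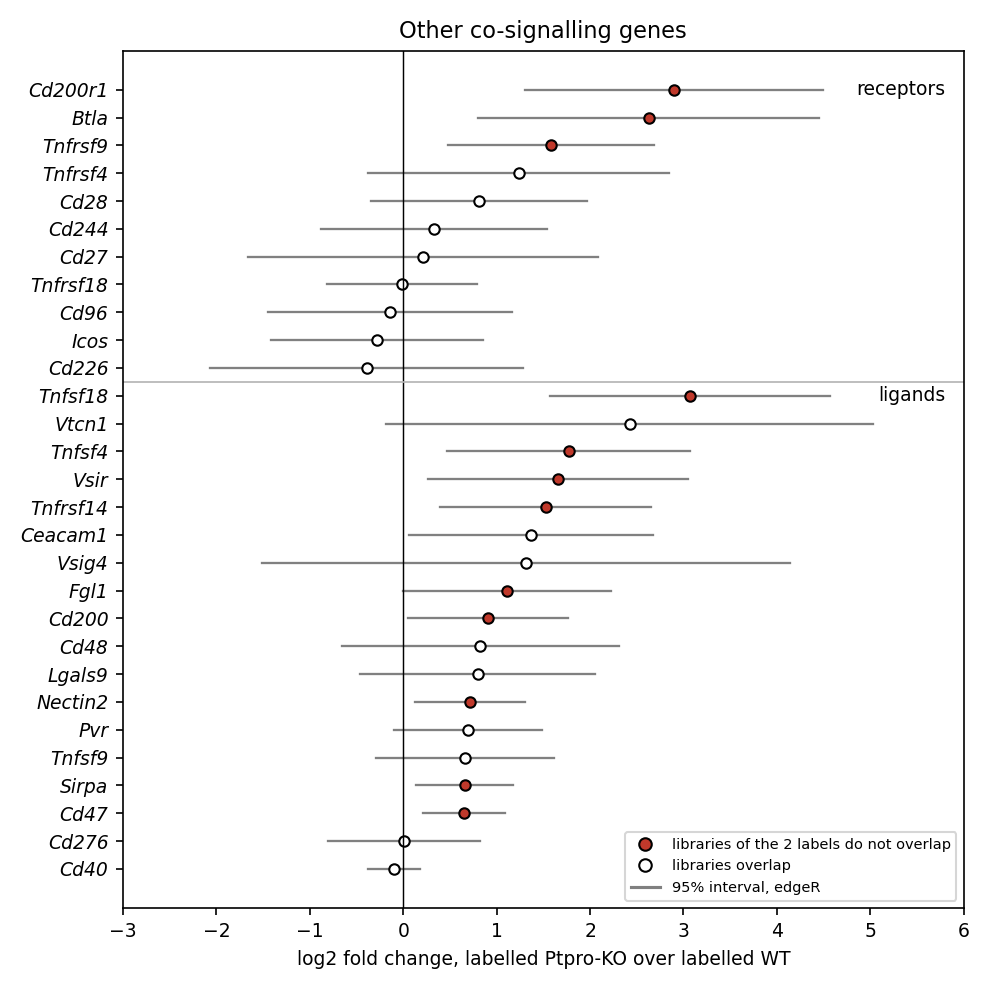
Log2 fold change (horizontal axis) with the 95% interval of the edgeR fit for the 29 other co-signalling genes tested, receptors above and ligands below; filled points mark genes whose libraries do not overlap between the labels. The 12 filled points all lie right of 0, from 0.65 for Cd47 to 3.06 for Tnfsf18.

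Transcription factors known to drive checkpoint receptors in T cells showed no common direction. Of 10 listed, 8 were tested, 4 had positive and 4 negative fold changes, and 0 passed. The smallest p belonged to Prdm1 (Blimp-1), at 42.6, 33.5 and 38.2 CPM in Ptpro-KO-labelled libraries against 73.1, 67.5 and 50.9 CPM in WT-labelled ones (log2 fold change -0.74, edgeR adjusted p = 0.0711), a gene that keratinocytes also express. Batf came next (0.74, adjusted p = 0.182).

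The tumours also differed in their epithelial and stromal transcripts. All 4 simple epithelium markers rose (Krt8, Krt18, Krt19 and Epcam), where 1.81% of all genes tested were called higher and 2.29% lower. They summed to 757.5 to 1442 CPM under the Ptpro-KO label, against 33.4 to 79.7 CPM under the WT label. Of 5 fibroblast markers, the collagen genes Col1a1 and Col1a2 rose (log2 fold changes 2.71 and 2.25, edgeR adjusted p = 0.0126 and 0.0434). Pdgfra, Dcn and Lum did not pass (1.84, 0.39 and 0.87), and Dcn and Lum overlapped between the labels. Of 4 endothelium markers 0 passed, with a median log2 fold change of 0.13. The part of these cells in the values of the checkpoint genes was not tested.

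**Figure D5:**
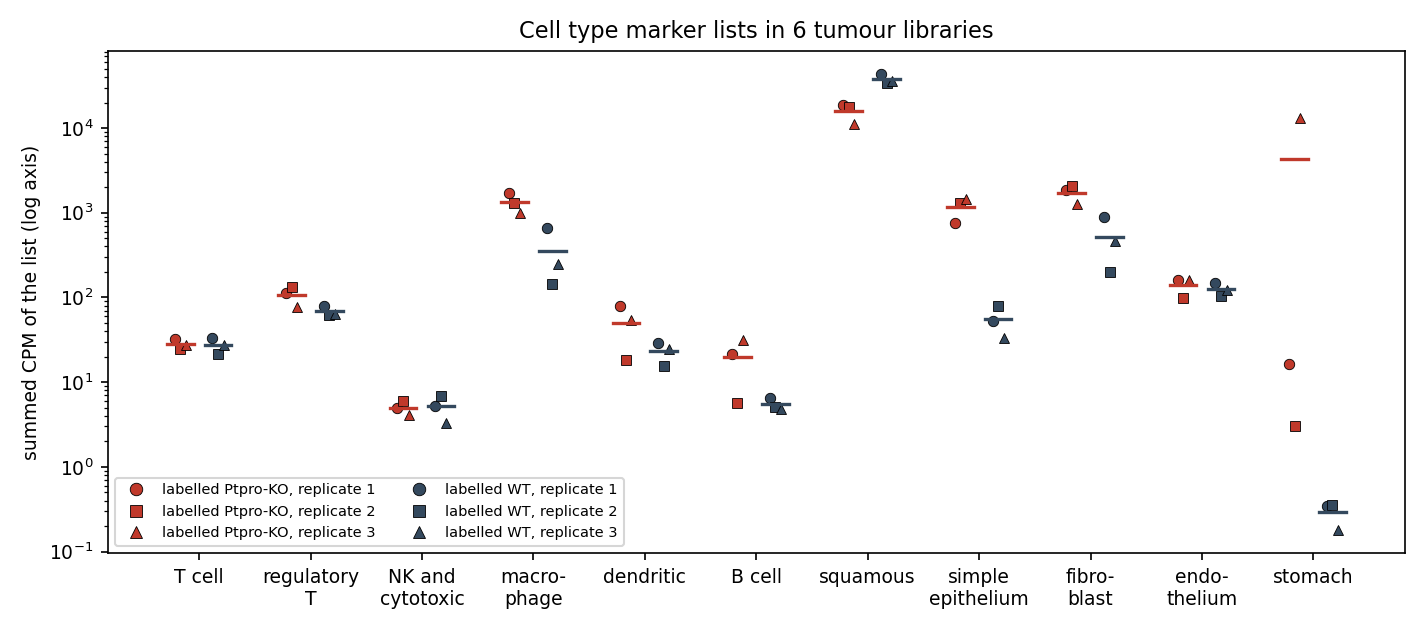
Summed CPM of the cell type marker lists on a log axis, with 1 symbol per library (red for labelled Ptpro-KO on the left, dark for labelled WT on the right) and a bar at the mean of 3. T cell markers (24.4 to 32.7 against 21.8 to 33.4 CPM) overlap, while macrophage (994 to 1715 against 143 to 657 CPM), simple epithelium and fibroblast markers lie higher and squamous markers lower in Ptpro-KO-labelled libraries.

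Across the 6 libraries some members had close profiles and others did not. The root mean square difference between centred log2 CPM profiles was 0.335 between Pdcd1 and Lag3, the closest pair, and 2.33 between Pdcd1lg2 and Icosl, the farthest. Pdcd1 and Cd274 (0.344) and Lag3 and Tigit (0.346) were also close. The measure grows with the size of each gene's own change. Pdcd1lg2 was at least 1.17 from every other member, its nearest being Havcr2. Against all tested genes with a mean log2 CPM of at least 1, Pdcd1lg2 was nearest to Gatm, Siglecg and Clec7a (0.35 to 0.442), Havcr2 to AI662270, Cd82 and Vegfc (0.176 to 0.209), and Icosl to Rps6ka5, Map6 and Adarb1 (0.102 to 0.115). Tigit was nearest to the endothelial genes Pecam1 and Vwf and to Ppap2a (0.0449 to 0.0967), Cd274 to Mal2, Icam1 and RP23-471L1.3 (0.101 to 0.112), and Cd86 to BC034090, Wnt11 and Tenc1 (0.0997 to 0.13). Ctla4 was nearest to Lrrc32, Plekha2 and Ksr1 (0.183 to 0.2), Cd80 to Limk1, Actn1 and Pcdh7 (0.0831 to 0.125), Lag3 to Mfsd7b, Rnf19a and Rrp15 (0.0512 to 0.0933), and Pdcd1 to Gm14137, St3gal1 and Hdc (0.124 to 0.244). These nearest genes are a description over 6 libraries.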

How the data were processed

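Tumour RNA was sequenced on an Illumina instrument, per the labels. The submitters' processing notes name Bowtie 0.12.2 and the build mm10. Neither strand nor the assignment of reads shared by isoforms is stated there. The deposited file of each sample holds read counts per Ensembl transcript and RPKM, the count over transcript length and library sum. FPKM per gene, deposited by the authors in a separate table, served as an alternative, leaving aside its 2 columns of unnamed groups.

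Transcript counts were added up by gene symbol, filtered with filterByExpr (at least 10 counts in 3 libraries, scaled by library size, and 15 in total), and scaled by TMM. The main test was edgeR's quasi-likelihood test (edgeR 4.0.16, R 4.3.3) with a Benjamini-Hochberg threshold 0.05 over 17663 genes. The pipeline was tested on simulated data. Alternatives were DESeq2 1.42.0, limma 3.58.1 (voom, and on log2 FPKM with pseudocounts of 1 and 0.1 for genes with at least 0.1 FPKM in 3 libraries), other scalings and filters, a replicate block, a sex term and single libraries left out. Log2 CPM for profiles has a prior count of 2. Ratios are reads over reads within a library. Ratios over each of the 12 macrophage markers were added after the data were seen. Each library was treated as 1 mouse, as the design text has 3 mice per group; libraries of 1 label were not duplicates, with chi-square per degree of freedom of 66.9 to 307. Intervals on single read counts cover counting error only.

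Named are all 10 members, and of the other lists the genes that passed, up to 3 with the smallest p where space allowed, and defining markers. Further genes were chosen after their values were seen (Gbp2, Irf1, Cxcl9, Cxcl10, Ciita, Ifngr2, Jak1, Itgax, Cd3g, Cd5, Cd79b, Cd28, Icos, Tnfrsf18 and Cd8b1). The members and lists were chosen with earlier results of these data known. Vsir, Nectin2 and Adgre1 are listed in the files under older names. Some members of the marker and pathway lists are not reported here and were left out of the sums, counts and medians.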

Additional observations from a re-analysis of the deposited data

How the results depend on the processing

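Directions of 8 of the 10 checkpoint genes held under every alternative that could be run; Lag3 and Pdcd1lg2 were removed by a filter of 50 counts. Pdcd1 was at -0.03 without Ptpro-KO replicate 2 and -0.17 without WT replicate 3, and Cd80 at 0.028 without WT replicate 2 (log2); with single libraries left out they ran from -0.17 to 0.63 and from -0.42 to 0.028. DESeq2 called 2 checkpoint genes higher and 1 lower, with 3152 genes called in all against 725 by edgeR; no other alternative called any of the 10. Of the other co-signalling genes, called higher were 7 by DESeq2, 1 by limma-voom, 2 with library totals only, 1 on each FPKM scale (pseudocounts 1 and 0.1), and 0 to 1 with single libraries left out. All genes called ran from 0 to 496 with single libraries left out: 0 without Ptpro-KO replicate 2, WT replicate 2 or WT replicate 3, 93 without Ptpro-KO replicate 1 and 132 without WT replicate 1. Without both replicate 1 libraries, chosen after seeing the data, it was 0, with 2971 genes at an unadjusted p under 0.05, and Icosl, Havcr2 and Pdcd1lg2 were at -1.22, 1.26 and 3.35. A sex term gave 186. The replicate block gave 237 (133 higher, 104 lower) and no checkpoint call. Same-numbered libraries deviated from their label means with correlations of 0.54, 0.08 and -0.24. Deviations within 3 libraries depend on one another, so these values cannot show whether the numbers pair the libraries. Library totals in place of TMM raised the median log2 fold change of all genes by 0.15 and gave 630 higher and 294 lower, against 320 and 405. The cause of these differences was not tested. Read counts were lowest in Pdcd1lg2, with 5 to 22 reads in WT-labelled libraries, and in Pdcd1, Lag3 and Tigit, with at least 1 library under 30 reads each. On the authors' FPKM, Tigit was at 1.03 (pseudocount 0.1) and Pdcd1lg2 at 1.43 (pseudocount 1).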
